A study of Mus musculus with 12 samples.

Results

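The genes described here are 10 transcription factor genes of the immediate early and AP-1 group: Fos, Fosb, Fosl2, Jun, Junb, Jund, Egr1, Egr2, Egr3 and Maff. They were found by their Ensembl identifiers, matched to symbols in the GENCODE M21 annotation of GRCm38. They are 10 of the 52636 genes in the file and, since all 10 passed the filter on low counts, 10 of the 14687 genes tested. RNA was sequenced from primary microglia, the brain's own macrophages, grown from wild-type (WT) C57BL/6 pups 1 to 2 days old. The cells were shaken off mixed cultures after 10 to 13 days and plated at 50000 per well in medium with serum and 2.5 ng of the growth factor CSF1. The treatments, all of 24 h, were vehicle, full-length neurofilament light chain (FL-NfL, 5 µg) and the coiled-coil part of that protein (CC-NfL, 5 µg). Neurofilament light chain belongs to the cytoskeleton of axons and leaks from damaged neurons. Each group had 4 libraries, and the labels place replicates 1 to 4 in batches 1 to 4, so that every batch held 1 library of each group. The labels do not say whether the batches were separate cultures or litters, and p-values therefore measure the spread between these samples.

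Immediate early genes are transcribed within minutes of a stimulus, without new protein synthesis, and their transcripts are usually short-lived. Fos and Jun proteins pair through leucine zippers to form AP-1, which binds DNA at promoters and enhancers of genes for cytokines, proteases and growth control, while Egr proteins bind GC-rich sites through zinc fingers. In microglia and other macrophages both groups respond to toll-like receptor ligands and growth factors, through MAP kinases and serum response factor. Only 24 h was sampled, so levels in the first hours of treatment were not measured.

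The promoters are shown first, as a description of the genes. RefSeq promoters (GRCm38.p6, 250 bases before to 50 after each annotated start) were matched for 8 of the 10 genes, and the others are Egr1 and Egr3. The last 100 bases before the start are printed for 4 genes that were lower with full-length NfL within batches (Fos, Fosb, Jun and Egr2) and for 2 that did not pass the test (Junb and Maff). Fosl2, which was also lower within batches, and Jund, which did not pass the test, were matched but are not printed. Capitals mark motif matches on either strand.
Fos, chr12:85473790-85473889, plus strand: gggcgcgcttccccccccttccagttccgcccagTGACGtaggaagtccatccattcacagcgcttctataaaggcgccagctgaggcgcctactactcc
Fosb, chr7:19310046-19310145, minus strand: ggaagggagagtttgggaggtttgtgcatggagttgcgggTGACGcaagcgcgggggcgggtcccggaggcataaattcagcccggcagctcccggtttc
Jun, chr4:95052223-95052322, minus strand: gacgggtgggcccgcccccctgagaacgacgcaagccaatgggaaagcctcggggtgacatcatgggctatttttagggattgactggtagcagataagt
Egr2, chr10:67537769-67537868, plus strand: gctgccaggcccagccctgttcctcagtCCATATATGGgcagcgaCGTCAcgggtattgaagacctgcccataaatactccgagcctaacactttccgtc
Junb, chr8:84978749-84978848, minus strand: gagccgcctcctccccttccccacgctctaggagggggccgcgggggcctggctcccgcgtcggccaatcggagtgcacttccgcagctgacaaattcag
Maff, chr15:79347420-79347519, plus strand: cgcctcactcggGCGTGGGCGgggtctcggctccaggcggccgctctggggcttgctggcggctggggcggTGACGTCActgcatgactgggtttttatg

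The motifs searched on both strands were the CArG box bound by serum response factor, the cyclic AMP response element TGACGTCA, the AP-1 sites TGACTCA and TGAGTCA, the Egr site GCGTGGGCG, the kappa-B site, and TGACG, the first bases of the cyclic AMP response element, which was added after the promoters had been seen. Egr2 held a CArG box 72 bases before this start, which lies inside the GENCODE gene and is 1 of several annotated starts. A CArG box occurred in this 100-base window in 0.615% of all 32851 promoters. Fos held TGACG 66 bases before its start, Fosb 60 bases and Egr2 55 bases, against 10.5% of all promoters in the same window. Neither Fosl2 nor Jund held it there. The share is counted per promoter, so it is not a matched background for a gene with several annotated starts, such as Egr2 or Maff. Maff held the whole element TGACGTCA 29 bases before 1 of its starts, which contains the TGACG match, and an Egr site 88 bases before it, which 1.15% and 0.326% of promoters hold. The windows printed for Jun and Junb held none of these motifs. No promoter of the 8 genes held TGACTCA or TGAGTCA in the 250 bases before its starts or the 50 after them, whereas 5.20% of all promoters did. Kappa-B matches lay further upstream in Fos, Fosb, Fosl2 and Egr2, against 9.38% of all promoters. These matches are descriptions of the sequence, and no binding was measured.

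Total counts ran from 20162427 to 31048044 per library. Markers of microglia were the main cell type markers: their summed level was 11090 to 13100 CPM with vehicle, and the full-length and coiled-coil libraries had 9570 to 10980 and 11530 to 12460. CPM are read counts scaled to a common library total by edgeR's TMM factors. Markers of other cells were at lower levels than these, and some differed with full-length NfL: of 10 microglia markers 4 fell and 1 rose, of 9 tested border macrophage markers 4 fell, of 8 neuron markers 2 fell and of 9 astrocyte markers 1 fell, beside 10.9% of all tested genes that were lower and 14.0% higher. With batch in the model 4, 5, 8 and 7 fell, beside 22.4% of all genes, while 3 microglia and 2 border macrophage markers rose, beside 21.4%. Of 9 tested oligodendrocyte markers 1 rose and 0 fell, and with batch in the model 2 rose and 5 fell. Of 7 tested fibroblast and pericyte markers 0 rose and 0 fell, and with batch 3 fell. Of 4 tested endothelial markers 1 rose and 1 fell in either model. The summed level of 10 neuron markers was 31.1 to 96.6 CPM with vehicle and 16.1 to 47.1 with full-length NfL, with Slc17a6 at 0 counts in every library. For 10 astrocyte markers it was 26.0 to 57.7 and 23.8 to 37.5 CPM, with Gjb6 at 0, and for 10 fibroblast and pericyte markers 246 to 1408 and 69.7 to 523 CPM, nearly all of it Fn1. For 10 endothelial markers it was 46.1 to 101 and 37.7 to 49.6 CPM, with Cldn5 and Ly6c1 at 0, and for 10 border macrophage markers 3704 to 5579 and 3257 to 3564 CPM. The full-length library was below the vehicle library in 4 of 4 batches for each of these lists and for microglia markers, and in 3 of 4 batches for oligodendrocyte markers, at 243 to 278 and 250 to 264 CPM. A few abundant genes carry these sums: in the microglia list the mean of Aif1 went from 156 CPM with vehicle to 553 with full-length NfL, against the sum, and in the endothelial list that of Flt1 went from 59.6 to 26.0 while that of Cdh5 went from 1.17 to 2.98. In bulk RNA, fewer cells of a type and less RNA per cell cannot be told apart, and the part of these cells in the results below was not tested.

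Length-corrected levels (TPM, which allow genes to be compared) placed Fos and Junb at the top. With vehicle Fos stood at 232 ± 74.4 TPM (mean ± SD, n = 4), Junb at 205 ± 22.6 and Jun at 132 ± 30.4. Fos and Junb did not differ beyond their spread. A wide step below came Jund at 31.4 ± 3.02 TPM, Fosl2 at 27.1 ± 9.04 and Egr1 at 19.2 ± 1.86, of which Jund and Fosl2 overlapped. Egr2 followed at 8.86 ± 3.41 TPM, then Maff at 4.18 ± 0.453, Egr3 at 1.31 ± 0.311 and Fosb at 0.324 ± 0.190. Over the 12 libraries Fos made up 86.1% to 94.0% of the TPM of the 3 Fos family genes, and Junb 50.5% to 69.3% of that of the 3 Jun genes. With full-length NfL the mean of Junb, 180 ± 25.7 TPM, stood above that of Fos, 154 ± 67.1, within the spread of Fos. The level of Jund is uncertain, since its RefSeq start lies 1210 bases from the start of the GENCODE gene, whose exons gave the length. That of Junb is uncertain because its exons overlap those of Prdx2 on the opposite strand, which had at most 3589 counts, and the strand setting of the counting is not given in the sources used here.

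None of the 10 genes was higher with full-length NfL than with vehicle, and 2 were lower, Egr1 and Fosb (edgeR quasi-likelihood test, Benjamini-Hochberg adjusted p under 0.05 over all genes). Of all tested genes 14.0% were higher and 10.9% lower, so that the 2 of 10 are not far from the background. Fosb passed the filter on low counts through the vehicle and coiled-coil groups alone. The direction of its calls, also with the batch block below, was set in part by that filter. When batch was added to the model as a block, 7 of the 10 were lower (Fos, Fosb, Fosl2, Jun, Egr1, Egr2 and Egr3) and none was higher, where 22.4% of all genes were lower and 21.4% higher. The median log2 fold change of the 10 genes was −0.48, beside −0.02 over all tested genes. For 7 of the 10 the full-length level was under the vehicle level within each of the 4 batches, which held for 28.1% of all genes. Junb, Jund and Maff passed neither model. The plot of levels by library shows this pattern batch by batch.

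**Figure D1:**
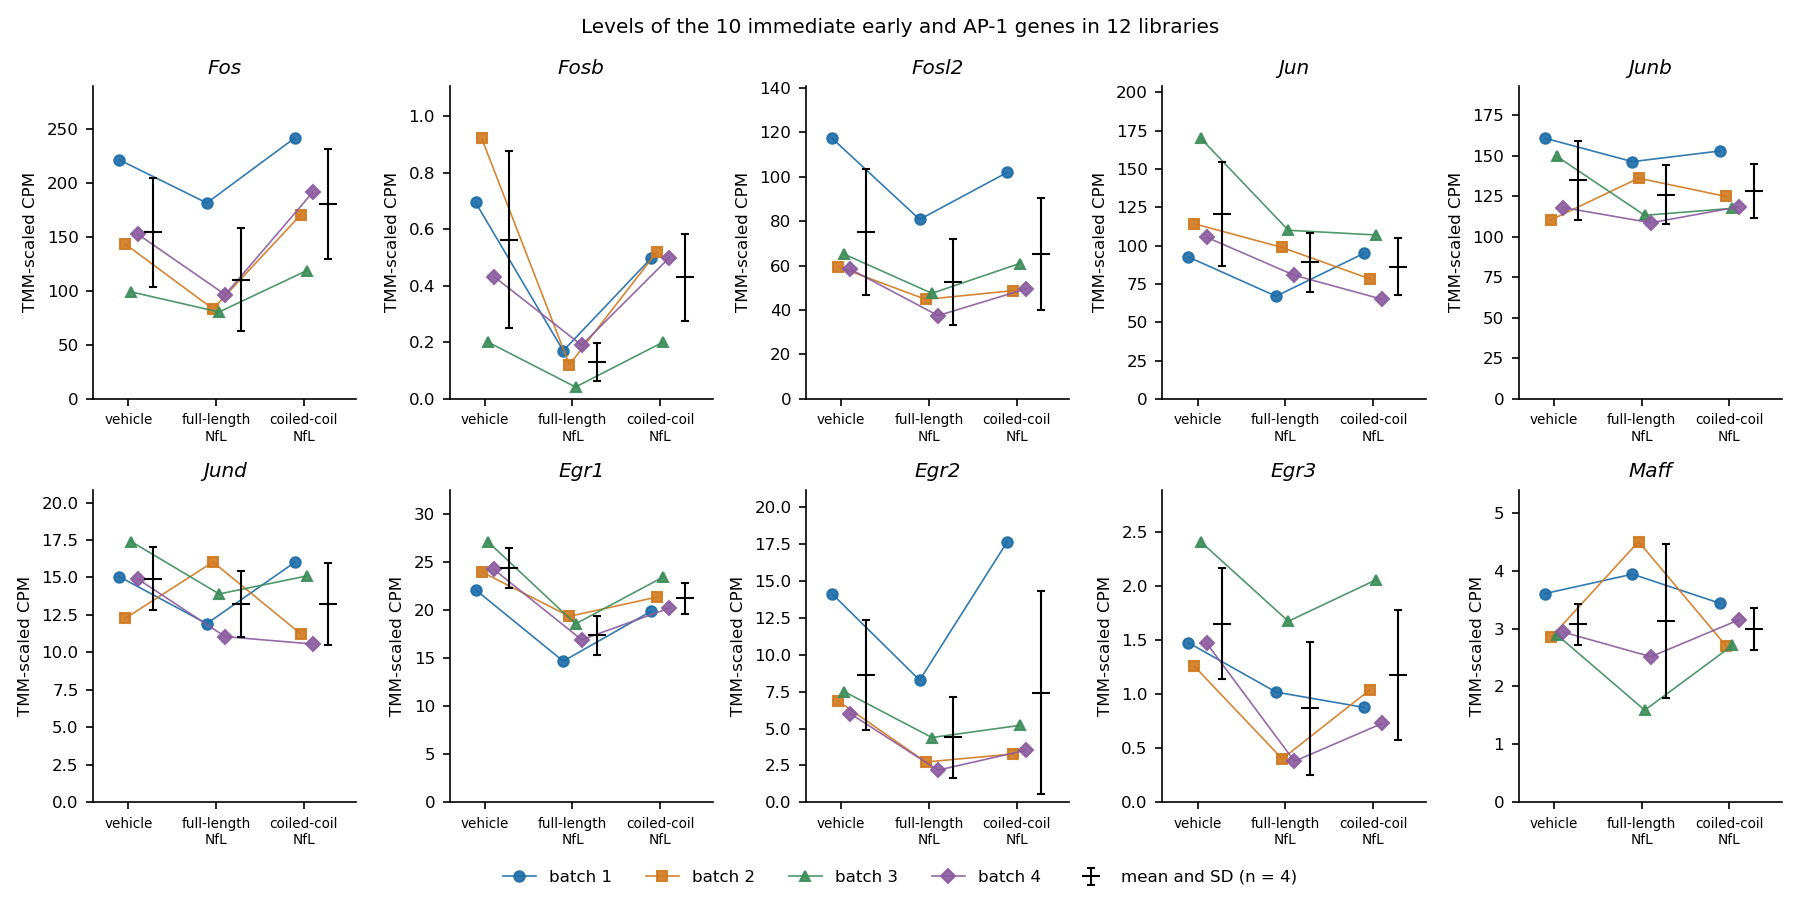
Level of each of the 10 genes (TMM-scaled CPM, linear axis from 0) in the 12 libraries; points joined by a line are the 3 libraries of 1 batch, and black bars give the mean and SD of 4 libraries. The lines of Fos, Fosb, Fosl2, Jun, Egr1, Egr2 and Egr3 go down from vehicle to full-length NfL in all 4 batches, while those of Junb, Jund and Maff go both ways.

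In the Fos family, Fos, which gives c-Fos, the partner of Jun that is best known as a marker of recent stimulation, is encoded on chromosome 12 (ENSMUSG00000021250, 85473890 to 85477273). Its level in replicates 1 to 4 was 221, 143, 98.9 and 153 CPM with vehicle. It was 181, 83.2, 80.3 and 96.4 CPM with full-length NfL. With coiled-coil NfL it was 241, 170, 119 and 191 CPM. Batch 1 was highest and batch 3 lowest in every group, and the ranges of the groups overlapped, but each batch kept the same order of treatments: coiled-coil highest, full-length lowest. The log2 fold change of full-length NfL against vehicle was −0.48 ± 0.30 (SE; adjusted p = 0.265). With the batch block it was −0.50 ± 0.10 (adjusted p = 0.00215), a level 29.3% lower.

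Fosl2, the gene of Fra-2, a Fos relative that lacks the strong activation domain of c-Fos (chromosome 5, ENSMUSG00000029135, 32135801 to 32157842), was also highest in batch 1. Vehicle libraries gave 117, 59.5, 65.2 and 58.4 CPM, and full-length libraries 80.8, 44.8, 47.5 and 37.5 CPM. Coiled-coil libraries gave 102, 48.7, 60.9 and 49.5 CPM. Batch 1 stood well above the other 3 in each group, and within every batch vehicle was highest and full-length lowest. The change with full-length NfL was −0.51 ± 0.31 on the log2 scale (adjusted p = 0.247), and with the batch block −0.51 ± 0.06 (adjusted p = 0.000128), the smallest adjusted p of the 10 genes in that model.

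Fosb, which gives another c-Fos relative known for its stable truncated form in neurons, was barely present (chromosome 7, ENSMUSG00000003545, 19302696 to 19310051). It had 16, 22, 5 and 10 read counts in the vehicle libraries, 5, 3, 1 and 4 in the full-length and 13, 16, 4 and 13 in the coiled-coil libraries. As CPM, vehicle libraries lay between 0.201 and 0.922, full-length libraries between 0.0419 and 0.190 and coiled-coil libraries between 0.201 and 0.520. On this scale the full-length libraries did not overlap either other group. As read counts they did, since full-length replicate 1 had 5, vehicle replicate 3 had 5 and coiled-coil replicate 3 had 4. All full-length libraries lay below all vehicle libraries for 11.4% of all genes, and below all coiled-coil libraries for 5.02%. The log2 fold change of full-length NfL against vehicle was −2.06 ± 0.55 (adjusted p = 0.0181; with the batch block −2.06 ± 0.39, adjusted p = 0.00166). Fosb passed the filter through the other groups alone, since 3 vehicle, 3 coiled-coil and 0 full-length libraries reached its minimum of 0.395 CPM, so the direction of its change was set in part by the filter. Leaving out vehicle replicate 2 gave an adjusted p of 0.0609, and leaving out full-length replicate 2 gave 0.0528.

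Among the Jun genes, Jun itself gives c-Jun, the AP-1 subunit that Jun N-terminal kinases phosphorylate (chromosome 4, ENSMUSG00000052684, 95049034 to 95052222). Its level was 92.6, 114, 170 and 105 CPM in vehicle replicates 1 to 4. Full-length libraries had 67.0, 98.7, 110 and 80.6 CPM, and coiled-coil libraries 94.9, 78.3, 107 and 65.0 CPM. Batch 3 was highest in each group, and the groups overlapped, with both NfL forms below vehicle in batches 2, 3 and 4. Against vehicle the log2 change with full-length NfL was −0.44 ± 0.21 (adjusted p = 0.151), and with the batch block −0.42 ± 0.13 (adjusted p = 0.0184). This call in the block model was lost without batch 3 (adjusted p = 0.103) and without batch 4 (adjusted p = 0.0573).

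Junb and Jund did not pass the test in any comparison. Junb, an AP-1 subunit that can restrain c-Jun (chromosome 8, ENSMUSG00000052837, 84974484 to 84978718), had 161, 110, 149 and 118 CPM with vehicle and 146, 136, 113 and 109 CPM with full-length NfL. Its coiled-coil libraries had 153, 125, 117 and 118 CPM. The groups lay on top of each other, and the log2 change with full-length NfL, −0.09 ± 0.14, had a 95% interval of −0.40 to 0.21. Jund, the Jun gene that is expressed most steadily in resting cells (chromosome 8, ENSMUSG00000071076, 70698949 to 70700616), had 12.3 to 17.4 CPM in vehicle, 11.1 to 16.0 in full-length and 10.6 to 16.0 in coiled-coil libraries. Its change with full-length NfL was −0.17 ± 0.17, with a 95% interval of −0.53 to 0.19. Antisense genes that overlap Jun and Jund had at most 2 and 0 counts.

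The Egr genes encode zinc finger factors, and Egr1 was the one gene of the 10 that passed both models on ample counts (chromosome 18, ENSMUSG00000038418, 34859823 to 34864984; 357 to 676 counts per library). Egr1 is a standard reporter of MAP kinase signalling. Its vehicle libraries had 22.1, 24.0, 27.2 and 24.3 CPM, and its full-length libraries 14.7, 19.4, 18.6 and 16.9 CPM. Its coiled-coil libraries had 19.9, 21.4, 23.5 and 20.2 CPM. Every full-length library was below every library of the other groups. That held for 11.4% of all genes against vehicle and 5.02% against coiled-coil NfL. For Egr1, coiled-coil lay between the others in all 4 batches. The level with full-length NfL was 28.7% lower than with vehicle, a log2 change of −0.49 ± 0.10 with a 95% interval of −0.71 to −0.27 (adjusted p = 0.00585; with the batch block 0.000431).

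Egr2, known from myelinating Schwann cells and as a factor of macrophage differentiation (chromosome 10, ENSMUSG00000037868, 67535475 to 67542188), varied widely from batch to batch. Vehicle libraries had 14.2, 6.87, 7.51 and 6.01 CPM, and full-length libraries 8.29, 2.73, 4.40 and 2.18 CPM. In coiled-coil libraries it was 17.7, 3.28, 5.22 and 3.53 CPM. Batch 1 was highest in each group, and in it coiled-coil was above vehicle, whereas in batches 2 to 4 it was below. The change with full-length NfL was −0.96 ± 0.57 on the log2 scale (adjusted p = 0.236), and with the batch block −1.07 ± 0.20 (adjusted p = 0.00173).

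Egr3, a close relative that calcium signalling can induce (chromosome 14, ENSMUSG00000033730, 70077203 to 70082614), had only 8 to 60 counts per library. Its vehicle libraries had 1.48, 1.26, 2.41 and 1.47 CPM, its full-length libraries 1.02, 0.402, 1.67 and 0.380 CPM and its coiled-coil libraries 0.878, 1.04, 2.06 and 0.730 CPM. Batch 3 was highest in each group, and each batch had its highest level with vehicle. With full-length NfL the log2 change was −0.92 ± 0.48 (adjusted p = 0.176), and with the batch block −1.0 ± 0.28 (adjusted p = 0.0141), a call lost without batch 2 (adjusted p = 0.0601) and without batch 4 (adjusted p = 0.0857). Summed over Egr1, Egr2 and Egr3, the level was 29.4 ± 1.51 TPM in vehicle libraries, 17.6 ± 1.88 in full-length libraries and 24.4 ± 6.26 in coiled-coil libraries.

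Maff encodes a small Maf protein, which has no activation domain of its own and pairs with factors such as Nrf2 (chromosome 15, ENSMUSG00000042622, 79346621 to 79359076). It had 3.60, 2.85, 2.89 and 2.94 CPM with vehicle and 3.94, 4.50, 1.59 and 2.51 CPM with full-length NfL. Coiled-coil libraries had 3.44, 2.70, 2.71 and 3.15 CPM. The full-length libraries spread above and below the others, higher than vehicle in batches 1 and 2 and lower in batches 3 and 4. The log2 change was 0.03 ± 0.27, with a 95% interval of −0.55 to 0.62, and its sign turned with upper-quartile scaling (−0.02) and with the batch block (−0.01).

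With coiled-coil NfL no gene of the 10 passed the test against vehicle, by edgeR with or without the batch block or by DESeq2. DESeq2 gave no adjusted p for Fosb, Jund, Egr2, Egr3 and Maff, so it did not judge them here. Of all tested genes 0% passed without the block and 0.0136%, which is 2 genes, with it, while DESeq2 called 33. At an unadjusted p under 0.05 edgeR without the block gave 1 of the 10, Jun, at −0.48 ± 0.21 on the log2 scale (adjusted p = 0.674). With the block it gave 1 higher and 4 lower at that p. The share of all genes at that p was not counted, so neither result has a background. Jun had 86.3 ± 18.4 CPM with coiled-coil NfL and 121 ± 34.2 with vehicle. Fos was above vehicle in all 4 batches, with a log2 change of 0.23 ± 0.30 (adjusted p = 0.890), and 11.0% of all genes were above vehicle in every batch. Fosl2, Egr1 and Egr3 were below vehicle in all 4 batches, where 12.2% of all genes were. The largest of these 3 differences was that of Egr3, −0.51 ± 0.47, and the 95% interval of Egr1 ran from −0.42 to 0.02. Without batch 1, an alternative chosen after the data had been seen, Jun (−0.64, adjusted p = 0.00394) and Egr2 (−0.79, adjusted p = 0.0233) were called lower with the block. The count of all genes called in that fit is not given here, so these calls stand without a background. Leaving out coiled-coil replicate 1 alone, without the block, gave 26 of 14823 genes and 0 of the 10.

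**Figure D2:**
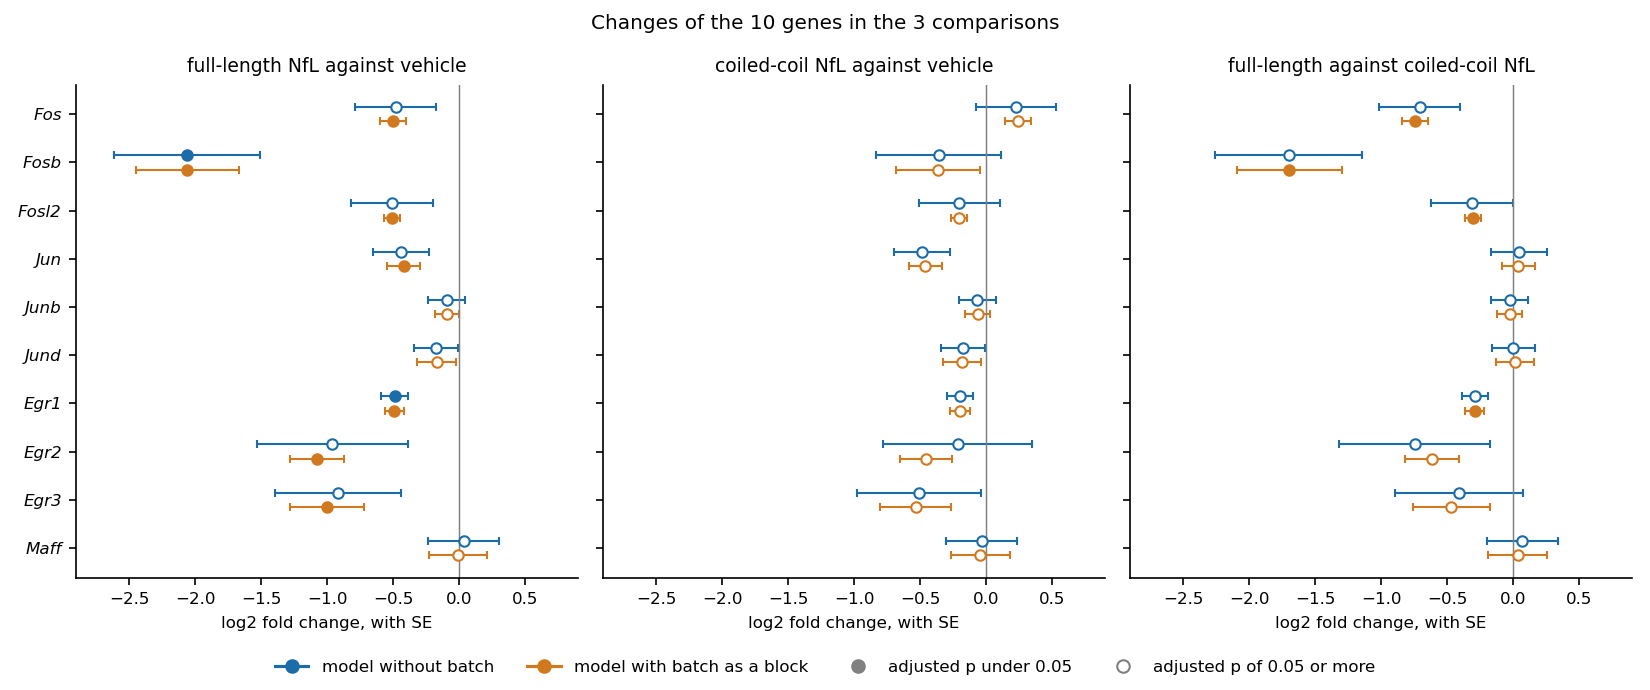
Log2 fold change with SE of the 10 genes in the 3 comparisons, from the model without batch (blue) and with batch as a block (orange); filled points have an adjusted p under 0.05. Fosb and Egr1 are filled in blue against vehicle in the full-length panel, 7 genes are filled in orange there, none is filled in the coiled-coil panel, and 4 are filled in orange between the NfL forms.

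The NfL forms were then compared directly, which tests the difference between their responses. The full-length libraries are those used against vehicle, so this comparison is not separate evidence. No gene of the 10 passed without the block, where 1.38% of all genes were higher and 1.34% lower with full-length than with coiled-coil NfL. At an unadjusted p under 0.05 edgeR gave 3 lower without the block (Fos, Fosb and Egr1) and 5 lower with it. The share of all genes at that p was not counted. DESeq2 called none by adjusted p, and gave no adjusted p for Fosb. Of all 14687 genes DESeq2 called 1425, 797 higher and 628 lower. With the block 4 were lower with full-length NfL and none was higher, where 8.99% of all genes were higher and 10.1% lower. Fos differed by −0.74 ± 0.10 on the log2 scale (adjusted p = 0.00134), a level 40.3% lower, and was still called with each batch left out in turn. Fosl2 differed by −0.30 ± 0.06 (adjusted p = 0.00758), Egr1 by −0.29 ± 0.07 (adjusted p = 0.0204) and Fosb by −1.69 ± 0.40 (adjusted p = 0.0156). Since Fosb passed the filter through the vehicle and coiled-coil groups alone, its direction here was also set in part by the filter. The Fosb call was lost with any of the 4 batches left out, the Egr1 call without batch 1, 3 or 4, and the Fosl2 call without batch 4. Jun, whose mean was below that of vehicle with either form, differed between the forms by 0.05 ± 0.21, with a 95% interval of −0.42 to 0.51, and for Egr2 the blocked difference was −0.62 ± 0.21 (adjusted p = 0.0570).

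Batch accounted for more of the variance of log2 CPM than treatment did in 8 of the 10 genes. The share of all genes for which this held was not counted. With 4 batches and 3 treatment groups, batch takes somewhat more of the variance even where neither has an effect. Its share was 78.7% for Fosl2, 67.6% for Egr2, 64.0% for Junb and 59.4% for Fos, beside a median of 34.2% over all tested genes. Treatment accounted for more than batch in Egr1, with 74.0% against 21%, and in Fosb, with 59.9% against 33.5%. For Maff the treatment share was 0.657% and for Junb 3.62%, beside 30.1% over all genes. The batches did not order the genes alike: batch 1 was highest for Fos, Fosl2, Junb, Egr2 and Maff, batch 3 for Jun, Jund, Egr1 and Egr3, and batch 2 for Fosb. What differed between batches is not given in the labels.

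**Figure D3:**
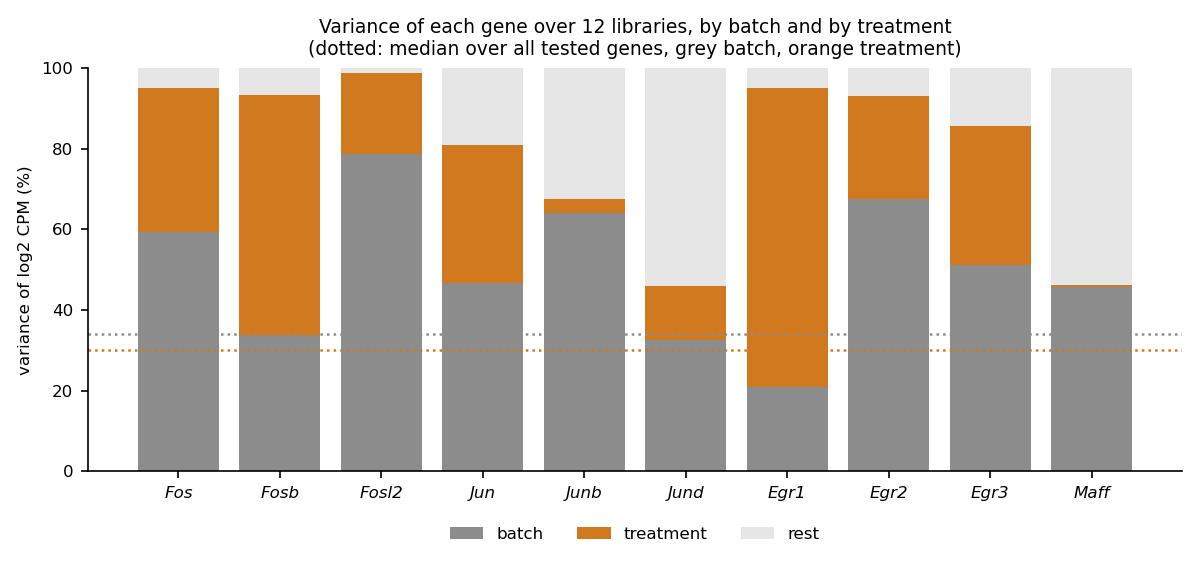
Share of the variance of log2 CPM over 12 libraries that goes with batch (grey), with treatment (orange) and with neither (light grey), stacked to 100% for each gene; dotted lines give the medians over all tested genes, 34.2% for batch and 30.1% for treatment. Egr1 has the largest treatment share of the 10, at 74.0%, and Fosl2 the largest batch share, at 78.7%.

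Genes around AP-1 and Egr were counted in 6 lists, chosen by function, and each count with full-length NfL stands beside 14.0% of all tested genes higher and 10.9% lower, or 21.4% and 22.4% with the batch block. Of 16 dimer partners and competitors of AP-1, 4 rose and 3 fell, and with the block 6 rose and 4 fell. Jdp2, a Jun dimerization protein that acts as a repressor at AP-1 sites, rose from 12.0 ± 3.02 to 32.9 ± 11.0 CPM (log2 change 1.46 ± 0.25, adjusted p = 0.00256). Batf, a leucine zipper factor that pairs with Jun proteins and with interferon regulatory factors, rose from 4.36 ± 1.51 to 16.3 ± 6.56 CPM (1.90 ± 0.35, adjusted p = 0.00310). For both genes all 4 full-length libraries lay above all vehicle and all coiled-coil libraries. Of all genes 14.45% lay so against vehicle and 7.46% against coiled-coil NfL. Jdp2 and Batf also passed the test between the NfL forms (adjusted p = 0.0446 for Jdp2 and 0.0218 for Batf). Nfe2l2, the gene of Nrf2, a partner of small Maf proteins, fell from 441 ± 59.1 to 310 ± 25.6 CPM (−0.51 ± 0.11, adjusted p = 0.00790). Batf2 and Atf7, called higher, and Atf2, called lower, are named after their values were seen.

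Other immediate early genes went both ways. Of 25 tested, 5 rose and 2 fell with full-length NfL, with a median log2 change of −0.09, and with the batch block 5 rose and 6 fell. Trib1, a pseudokinase gene, rose from 57.9 ± 5.56 to 95.6 ± 4.62 CPM (0.72 ± 0.11, adjusted p = 0.00153), and Klf2, a zinc finger factor that dampens inflammatory signalling, from 8.34 ± 2.87 to 17.8 ± 2.82 CPM (1.09 ± 0.21, adjusted p = 0.00382). Zfp36l1, which encodes an mRNA decay factor, fell from 79.0 ± 12.6 to 51.0 ± 4.06 CPM (−0.63 ± 0.11, adjusted p = 0.00307). With coiled-coil NfL none passed, and the smallest p was that of Trib1 (0.34 ± 0.11, adjusted p = 0.649).

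Of 20 kinases of the MAP kinase cascade above these genes, 3 rose and 2 fell with full-length NfL, and with the block 5 rose and 4 fell, both close to the shares of all genes. Rps6ka1, a kinase activated by ERK, rose by 0.52 ± 0.10 on the log2 scale (adjusted p = 0.00374) and Map2k2, which activates ERK, by 0.45 ± 0.09 (adjusted p = 0.00628). Map3k5, a stress kinase above the JNK and p38 branches, fell by 0.70 ± 0.12 (adjusted p = 0.00269). Of 14 MAP kinase phosphatases and feedback inhibitors, 1 rose and 4 fell, and with the batch block 2 rose and 6 fell, with a median log2 change of −0.41. Dusp6, a phosphatase of ERK that ERK signalling induces, was 95.4 ± 7.80 CPM with vehicle and 65.4 ± 11.2 with full-length NfL, and fell by 0.54 ± 0.12 (adjusted p = 0.00782). Spred1 fell by 0.50 ± 0.10 (adjusted p = 0.00476) and Dusp7 by 0.70 ± 0.17 (adjusted p = 0.0132). The gene that rose was Dusp2, named after its value was seen.

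A list of 14 genes held serum response factor and its cofactors, the Egr cofactors, and Mef2, Creb3 and Crtc genes. Of these 14, 2 rose and 2 fell, and with the block 2 rose and 3 fell. Nab1, a corepressor that binds Egr proteins, rose from 94.9 ± 12.7 to 126 ± 9.26 CPM (0.41 ± 0.09, adjusted p = 0.00790). Its relative Nab2, named after its value was seen, fell by 0.32 (adjusted p = 0.0282). Creb3 rose by 0.35 ± 0.08 (adjusted p = 0.0106), and Mef2c, a MADS box factor of microglia, fell by 0.91 ± 0.14 (adjusted p = 0.00136). Of 22 genes whose promoters or enhancers are known to hold AP-1 sites, 6 rose and 3 fell, with a median log2 change of 0.13, and with the block 9 rose and 6 fell. Hmox1, the heme oxygenase gene, rose from 611 ± 207 to 1679 ± 654 CPM (1.46 ± 0.31, adjusted p = 0.00692), while Spp1, which encodes osteopontin, fell from 12440 ± 2076 to 4020 ± 306 CPM (−1.63 ± 0.28, adjusted p = 0.00247). Plau, the urokinase gene, fell from 302 ± 48.5 to 130 ± 21.6 CPM (−1.22 ± 0.13, adjusted p = 0.000386). No gene of the 6 lists passed the test with coiled-coil NfL, as no gene did among all those tested.

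**Figure D4:**
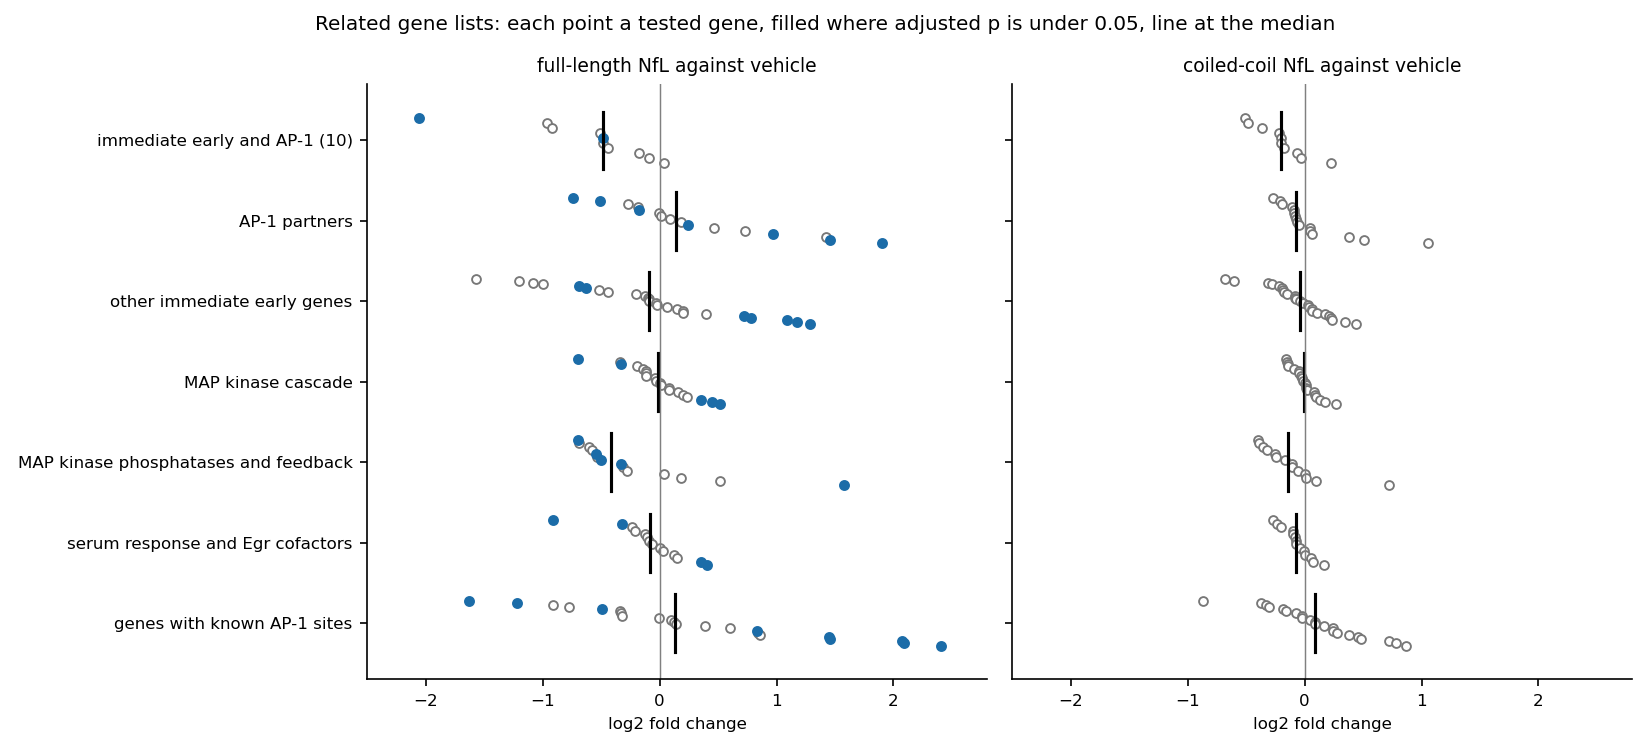
Log2 fold change against vehicle of each tested gene in the group of 10 and in 6 related lists, with full-length NfL (left) and coiled-coil NfL (right); blue points have an adjusted p under 0.05 and black lines mark list medians. With full-length NfL the 10 genes and the MAP kinase phosphatases have the lowest medians, −0.48 and −0.41. Each of the 6 related lists has called genes on both sides of 0; on the right no point is filled.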

How the data were processed

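Read counts of 12 libraries of polyadenylated RNA (stranded kit, single reads of 50 bases, per the labels' protocols) were deposited by the authors as raw counts per Ensembl gene, with no normalization. Reads were aligned to GRCm38 with GSNAP, per the submitters' processing notes. The sources used here do not give its version, the counting tool, the annotation or the strand setting. Of 52636 identifiers 99.7% had a symbol in GENCODE M21, which need not be the annotation used in counting.

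With R 4.3.3 and edgeR 4.0.16, filterByExpr kept 14687 genes with 99.93% of counts, TMM factors scaled the libraries, and 1 quasi-likelihood model of 3 groups (9 residual degrees of freedom) gave two-sided F tests, with Benjamini-Hochberg adjustment over the 14687 genes and calls at an adjusted p under 0.05. SEs were taken from the F statistic, and 95% intervals use 12.11 degrees of freedom, prior included. TPM used the summed exon length of each gene. The count test was tested on simulated data that held no batch effects and the same spread for every gene. Genes as low as Fosb and Egr3 were not changed in those data, so that check does not cover them.

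The labels give each replicate number a batch of its own, so the numbers pair the samples. After group means were removed, libraries of the same number correlated across genes at 0.31 to 0.73 (12 of 12 pairs over 0.1). Libraries of different groups and numbers correlated at −0.46 to 0.44, so the ranges overlapped. Adding the replicate number as a block left 6 residual degrees of freedom. Alternatives were other size factors (RLE, upper quartile), DESeq2 1.42.0, no filter, only the groups compared, and leaving out libraries or batches.

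The members and lists were chosen with earlier results of these data known. All 10 members are named. From each list the text names up to 3 called genes with the smallest p against vehicle, or the one with the smallest p, and for Fos, Jun and Egr1 the 3 genes most like them over the libraries. The name and values of 1 other called list gene are not reported here.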

Additional observations from a re-analysis of the deposited data

Results flagged for a closer look

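In 30 groups of 4 libraries (10 genes in 3 groups), 1 library stood apart from the other 3 by Dixon's ratio in 5, at the 95% critical value. Chance flags about 1 in 20 groups. The Fos level of full-length replicate 1 was 181.2 CPM, above 80.3 to 96.4 CPM in the others (ratio 0.841). The Fosl2 level of vehicle replicate 1 was 117.4 CPM, above 58.4 to 65.2 CPM (ratio 0.886). For Egr2 the coiled-coil replicate 1 had 17.68 CPM, above 3.28 to 5.22 CPM (ratio 0.866). For Maff the vehicle replicate 1 had 3.603 CPM, above 2.85 to 2.94 CPM (ratio 0.879). Fosb was lowest in coiled-coil replicate 3, at 0.2006 CPM, below 0.496 to 0.520 CPM (ratio 0.926), on 4 counts. Of the 5 values, 4 belong to batch 1, and both the Fosl2 and the Maff value come from vehicle replicate 1.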

How the results depend on the processing

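Over 22 alternatives, 30 member results (10 genes in 3 comparisons) gave 658 values, of which 619 kept their side of the threshold, 37 became called, 2 lost their call and 0 changed direction after a call. No member was called higher in any of them. A result to which DESeq2 gave no adjusted p was counted as not called. For full-length NfL against vehicle, 2 members were called with RLE or upper-quartile factors, DESeq2 and no filter. RLE factors, upper-quartile factors and DESeq2 called 3701, 3694 and 4287 of all 14687 genes, and no filter 2949 of 26839. With the replicate block 7 were called, and without batch 1, 2, 3 or 4 in the block model (chosen after the data had been seen) 7, 6, 6 and 5. With only the 2 groups compared 1 was called, beside 3238 of 14132 genes, since Fosb was then not tested. Leaving out 1 library gave 1 to 3: Fosb was lost without vehicle replicate 2 or full-length replicate 2, Fos was added without full-length replicate 1 (−0.83, adjusted p = 0.0434) and Egr3 without full-length replicate 3 (−1.43, adjusted p = 0.0480). In that order, these fits called 2646 of 14886, 2384 of 14875, 3828 of 14835 and 3220 of 14976 genes. For coiled-coil NfL against vehicle, 0 were called under each alternative that kept all batches or left out 1 library, and 2 in the block model without batch 1. Between the NfL forms 4 were called with the replicate block, and without batch 1, 2, 3 or 4 in it 2, 3, 2 and 1. Leaving out 1 library gave 0 in both. The block changed no other member call. Over all genes, upper-quartile scaling turned 2062 higher and 1594 lower with full-length NfL into 1691 and 2003, and the block raised the count from 3656 to 6432. All-gene counts of the other fits that left out a library or a batch are not given in this section. Counts of 1 to 22 limit Fosb, and 8 to 60 limit Egr3.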

Other observations

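The genes whose levels over the 12 libraries were most like those of Fos, Jun and Egr1 were not other immediate early genes. Pearson's r of log2 CPM was taken over 9271 protein-coding genes averaging 5 CPM or more, and it is a description, since libraries share treatments and batches. For Fos these were Olfml3, a secreted protein gene of microglia (r = 0.96), Reep3 (0.94) and Slc16a10, an amino acid transporter gene (0.94). For Egr1 they were Arhgap19 (r = 0.96), Ctsb, which encodes the lysosomal protease cathepsin B (0.95), and Vps39 (0.94). Their log2 differences between full-length NfL and vehicle were −0.63, −0.39 and −0.24, which their choice by likeness to Egr1 over the same libraries sets in part. For Jun they were Washc4 (r = 0.92), Vsir, an immune checkpoint gene (0.91), and Scyl2 (0.91).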
